A study of Homo sapiens with 12 samples.

Results

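Peaks of N4-acetylcytidine (ac4C) were examined in the mRNAs of 7 genes that write, maintain or remove DNA methylation: DNMT1, UHRF1, DNMT3A, DNMT3B, TET1, TET2 and TET3. They were taken as a list by name, with earlier results of these data known. All 7 had at least 1 peak, among 9898 protein-coding genes with a peak in any list. A peak belonged to a gene when its midpoint lay inside the gene's span on the gene's strand, on GRCh38. By this rule the 7 genes held 242 of the 126599 peaks listed. Acetylated RNA immunoprecipitation sequencing (acRIP-seq) pulls down RNA fragments with an antibody against ac4C, so that acetylated stretches appear as peaks. The cells were SW620, a human colorectal cancer line. The control group was labelled shControl with genotype WT (3 libraries) and the other was labelled shNAT10 with genotype NAT10 knockdown (3 libraries), NAT10 being the enzyme that places ac4C on RNA. Per the study's methods both kinds of line were made with lentivirus and kept stable by puromycin, and more than 1 shRNA against NAT10 was in use, without the labels telling which one these libraries carry. Nothing says that the libraries of a group came from separate cultures, so p-values here measure only the spread between these libraries, which may be technical.

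In DNA methylation, DNMT1 copies the methyl mark onto the new strand after replication, and UHRF1 recognises the half-methylated site and brings DNMT1 to it. DNMT3A and DNMT3B place the mark on unmethylated sites. TET1, TET2 and TET3 oxidise 5-methylcytosine to 5-hydroxymethylcytosine and further forms, which opens the way to its removal. Many colorectal cancers carry gains of methylation at promoters together with loss elsewhere in the genome.

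Over the whole lists, 18241, 22619 and 20063 peaks were given for control and 28752, 17877 and 19047 for NAT10-knockdown libraries. No read counts come with them. The depth is therefore unknown, and a change in the amount of an mRNA cannot be told apart from a change in its acetylation. The input libraries were not used here. Each peak carries a score of the authors, and the scores were used only as a percentile rank within a library, from 0 for the lowest to 100 for the highest. A library had 7.85% to 14.1% of its peaks at or above a score of 3100, and this level is called the ceiling. In the comparisons of ranks, a peak at the ceiling counted as 100. Knockdown library 1, the longest list, held 44.3% of all regions seen in a single library. NAT10 itself had 1, 0 and 2 peaks in control and 2, 0 and 1 in knockdown libraries, which is a count of peaks and no measure of the knockdown.

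The strongest peak position shared by all 6 libraries in DNMT1 lay across its annotated transcription start. The peak reached from 133 bases downstream of the start to between 84 and 182 bases upstream of it. The upstream stretch under the widest peaks, chr19:10194954-10195135 on the minus strand, is shown because this was where the peak's edge moved between libraries. The sequence is RefSeq's for GRCh38.p14, written 5′ to 3′ in the direction of transcription, and the capitals mark CCG, the triplet that NAT10 is known to acetylate in ribosomal and transfer RNA.
DNMT1 upstream stretch: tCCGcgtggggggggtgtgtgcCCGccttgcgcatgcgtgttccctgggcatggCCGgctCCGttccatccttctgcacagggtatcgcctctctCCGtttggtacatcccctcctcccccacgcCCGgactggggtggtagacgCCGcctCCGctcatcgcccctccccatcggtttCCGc
These 182 bases held 9 CCG in the direction of transcription, and 68.7% of the bases were G or C. They also held 3 CGG, which read CCG on the opposite strand. Of the 35097 RefSeq promoter windows, 73.5% had at least 1 CCG and 13.2% had at least 9 in the same length before the start, with a median of 2 CCG and a median of 59.3% G or C. A triplet in this window is a description of the sequence and not an acetylated site.

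Across the 7 genes, the number of peaks overlapped between control and NAT10-knockdown cells. The control libraries had 36, 38 and 41 peaks in these genes, a mean of 38.3 ± 2.52 (SD, n = 3). The knockdown libraries had 49, 35 and 43, a mean of 42.3 ± 7.02 (SD, n = 3). The lowest and the highest values were both in knockdown libraries, so that the control range lay inside the knockdown range. Relative to the length of the lists there were 19.7, 16.8 and 20.4 peaks per 10000 in control against 17.0, 19.6 and 22.6 in knockdown libraries. Knockdown library 1 thus had the highest number in these genes but the lowest of the knockdown values once set against its own list. No gene of the 7 had peak numbers that separated the groups. Among all 9898 genes, 1.58% had every knockdown library above every control library and 0.697% the reverse. Likewise none of the 7 had peaks in every library of one group while lacking them throughout the other, against 0.394% of all genes with peaks in knockdown cells alone and 0.374% in control cells alone.

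**Figure D1:**
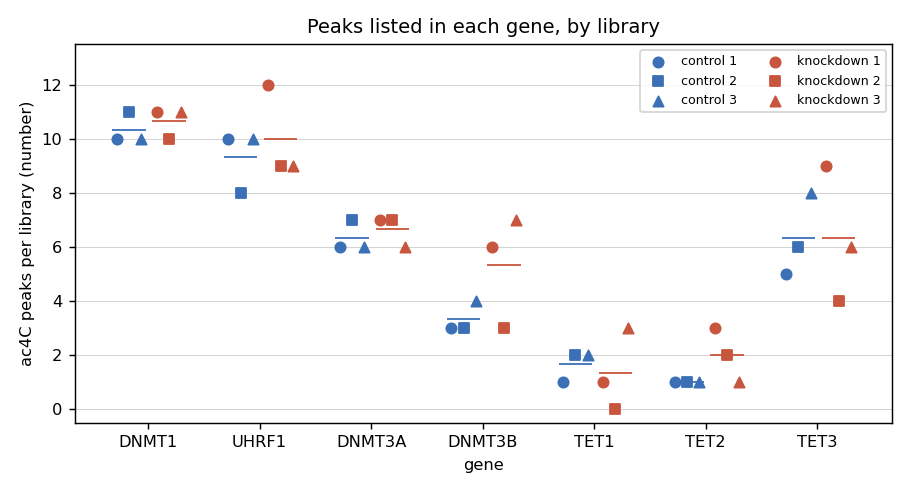
The y axis gives the number of ac4C peaks in each library for the 7 genes on the x axis. Points are single libraries (blue control, red NAT10 knockdown, shapes for replicate numbers) and the lines are group means. DNMT1 stayed at 10 or 11 in every library, while DNMT3B reached 6 and 7 in knockdown libraries 1 and 3 only.

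For peak numbers, a two-sided exact permutation test was run on each of the 9898 genes. With 3 libraries against 3 its smallest p is 0.1, so no gene could reach an unadjusted p under 0.05 (0 of 9898 did), and after Benjamini-Hochberg adjustment over all genes every p was 1.

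Of the maintenance pair, DNMT1 had the most peaks of the 7 genes. It spans 61.6 kb at chr19:10133346-10194953 on the minus strand. It held 10, 11 and 10 peaks in the control and 11, 10 and 11 in the knockdown lists. The groups overlapped and differed by 0.333 peaks (knockdown minus control; exact permutation p = 1). A mean of 10.5 peaks per library put DNMT1 at the 99.2nd percentile of the genes with a peak. Per 10 kb of span, introns included, it had 1.70 peaks, at the 87.5th percentile. Its peaks fell into 13 regions, a region being a stretch where peaks of 1 or more libraries overlap, and 10 of the 13 had a peak in all 6 libraries. The regions are numbered here from the 5′ end of each gene.

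DNMT1 region 1, the start region shown above, had a peak at the ceiling in 5 of 6 libraries and at the 89.2nd percentile in control library 2. The peak began 149, 84 and 123 bases upstream of the start in control libraries and 138, 182 and 182 bases upstream in knockdown libraries. The value of knockdown library 1 lay inside the control range, and the other two lay above it. Because of this edge the midpoint fell inside the gene span in control libraries 2 and 3 only. Counting every peak that touched the span instead gave 11, 11 and 10 peaks in control and 12, 11 and 12 in knockdown libraries, a difference of 1.0 (exact permutation p = 0.3).

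**Figure D2:**
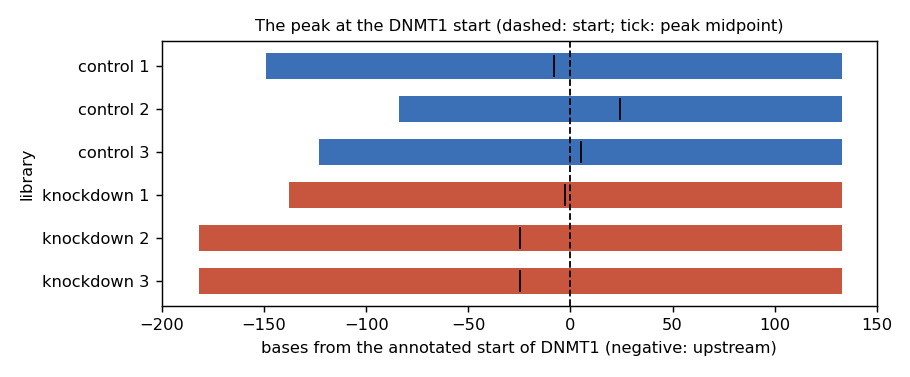
Bars give the extent of the peak at the DNMT1 start in each library, in bases from the annotated start (dashed line, negative values upstream), and ticks mark peak midpoints. The downstream edge was at 133 bases in all 6 libraries, and the upstream edge lay between 84 and 182 bases away.

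Inside the gene, DNMT1 region 9 at chr19:10166598-10166685, 88 bases long, ranked high throughout. Its percentiles were 87.1, 89.6 and the ceiling in control against the ceiling, 88.0 and the ceiling in knockdown libraries. Region 2 at chr19:10182041-10182077 was at 87.1, 70.7 and 86.6 in control, and at the ceiling, the ceiling and 84.4 in knockdown libraries. Both regions overlapped between the groups (exact permutation p = 0.7 and 0.3). Region 5 at chr19:10175540-10175618 was at 71.1, 76.9 and the ceiling in control against at the ceiling, 79.9 and the ceiling in knockdown libraries, again with overlap (p = 0.4 by the same exact test). Regions 3, 4, 7 and 8 were lower and more variable, from the 10.6th percentile (region 4, control library 1) to the 85.1st (region 7, knockdown library 1), and each overlapped between the groups. Region 4 ran from 10.6 to 55.6 in control and from 31.7 to 72.7 in knockdown libraries, so the spread within a group was wider than the distance between the groups.

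In 2 of the DNMT1 regions the ranks did not overlap between the groups, and in both the knockdown libraries were higher. Region 11 at chr19:10154586-10154773, 188 bases long, was at percentiles 22.6, 71.5 and 63.1 in control against at the ceiling, 80.9 and 79.8 in knockdown libraries. Its scores were 94.4, 769 and 660 in control against 3100, 1673 and 1736 in knockdown libraries. Control library 1 lay far below all others there. Region 6 at chr19:10173871-10173905, 35 bases long, was at 24.6, 51.7 and 60.6 in control against at 64.8, 66.8 and 68.0 in knockdown libraries. The gap between the groups in region 6, from 60.6 to 64.8, was small beside the spread of the control libraries. The mean difference was 34.5 percentile points in region 11 and 20.9 in region 6, each with an exact permutation p of 0.1, the smallest possible, and an adjusted p of 0.979 over the 9195 regions with peaks in all 6 libraries.

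The other 3 DNMT1 regions appeared in fewer libraries. Region 10 had a peak in control library 1 and knockdown libraries 1 and 3, region 12 in control library 2 and knockdown libraries 1 and 3, and region 13 near the 3′ end in knockdown library 2 alone. Peaks in regions 12 and 13 were among the weakest of the gene, at or under the 9.78th percentile.

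UHRF1, the partner that recruits DNMT1, held the peaks with the highest median rank of the 7 genes. It spans 59.1 kb at chr19:4903080-4962154 on the plus strand. There were 10, 8 and 10 peaks in control and 12, 9 and 9 in knockdown libraries. The groups overlapped and differed by 0.667 peaks (exact permutation p = 0.8). The mean of 9.67 peaks put UHRF1 at the 99.0th percentile of genes, and 1.64 peaks per 10 kb of span at the 86.8th. Of its 58 peaks, 43.1% were at the ceiling, against 11.8% of all peaks, and their median percentile was 87.5. A peak at the ceiling was listed in UHRF1 in all 6 libraries, so its top rank was equal everywhere.

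UHRF1 region 11 at chr19:4954650-4954822 was at the ceiling in all 6 libraries, the only region of the 7 genes with this property. Region 10 at chr19:4950611-4950773 was at 91.6, 89.6 and the ceiling in control against at the ceiling in the 3 knockdown libraries. Region 5 at chr19:4932741-4932956 was at 77.1, 84.1 and the ceiling in control and region 6 at chr19:4941745-4941931 at 84.7, 81.7 and the ceiling, and both were at the ceiling in all knockdown libraries. In these 3 regions control library 3 was tied with the knockdown libraries, so the groups touched (exact permutation p = 0.4 for each). Region 7 at chr19:4944132-4944255 was at 52.2, 74.1 and 84.4 in control against at 84.2, the ceiling and 86.0 in knockdown libraries, an overlap by the value of control library 3 (p = 0.2 by the same exact test). Region 3 at chr19:4929222-4929476 ran from 46.1 to 80.9 in control and from 67.6 to 77.4 in knockdown libraries.

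UHRF1 region 4 at chr19:4930716-4930876, 161 bases long, was the third and last of the regions with a peak in all 6 libraries whose ranks did not overlap between the groups. Its percentiles were 17.8, 63.3 and 58.8 in control against 78.5, 70.2 and 74.8 in knockdown libraries. The difference was 27.8 percentile points (exact permutation p = 0.1, adjusted p = 0.979 over all regions). As in both DNMT1 regions, control library 1 had the lowest value.

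At the 5′ side of UHRF1, peaks lay at 2 annotated starts inside the span. Region 1 at chr19:4909430-4909655 reached from 71 bases upstream to 154 bases downstream of one start and was listed only in control library 1, at the 89.7th percentile, and in knockdown library 1, at the ceiling. Region 2 at chr19:4910367-4911038 began exactly at another annotated start in control libraries 2 and 3 and knockdown libraries 2 and 3. In control library 1 and knockdown library 1, the same libraries that had region 1, it began 317 and 322 bases further downstream. One library of each group therefore showed the first form and the other libraries the second. Region 2 was at 89.0 in control library 1 and at the ceiling in the other 5 libraries.

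Both de novo methyltransferases had peaks in every library, and they differed in how repeatable those peaks were. DNMT3A spans 114.7 kb at chr2:25227874-25342590 on the minus strand. It had 6, 7 and 6 peaks in control against 7, 7 and 6 in knockdown libraries, a difference of 0.333 (exact permutation p = 1). Of its 9 regions, 5 had a peak in all 6 libraries, and none of its 39 peaks reached the ceiling. DNMT3A region 3 at chr2:25313913-25314161, 249 bases long, ranked highest. Its percentiles were 67.5, 80.3 and 82.7 in control against 78.5, 74.0 and 71.5 in knockdown libraries, with overlap (p = 0.7 by the same exact test).

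DNMT3A region 1 lay at the annotated start, at chr2:25342430-25342590. Its 5′ edge was 22, 18 and 0 bases from the start in control libraries and at the start itself in all knockdown libraries. The percentiles were 40.9, 58.3 and 44.6 in control against 63.7, 25.8 and 36.2 in knockdown libraries, so that the knockdown values enclosed the control values. Region 4 at chr2:25300139-25300243 ran from 25.5 to 64.6 in control and from 29.6 to 67.0 in knockdown libraries. Region 5 at chr2:25281940-25282711, the longest of DNMT3A with 772 bases, was at 53.6, 40.1 and 60.1 in control against 63.5, 31.2 and 51.8 in knockdown libraries. Region 6 at chr2:25274941-25275087 had the widest spread of the gene, 0.208, 28.0 and 50.4 in control against 79.6, 52.0 and 45.2 in knockdown libraries. Its difference of 32.8 percentile points went with overlap between control library 3 and knockdown library 3 (exact permutation p = 0.2).

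DNMT3B spans 47.0 kb at chr20:32762385-32809356 on the plus strand, and its peaks were scattered. There were 3, 3 and 4 peaks in control and 6, 3 and 7 in knockdown libraries. The means were 3.33 ± 0.577 (SD, n = 3) and 5.33 ± 2.08 (SD, n = 3), a difference of 2.0 (exact permutation p = 0.4), and knockdown library 2 was level with control libraries 1 and 2. Only 1 of its 11 regions had a peak in all 6 libraries and 6 regions were seen in a single library. DNMT3B region 1 at chr20:32762385-32762699 was the shared one, with the same start and end in every library and its 5′ edge exactly at the start of the span. It was at percentiles 29.3, 34.3 and 58.2 in control against 73.4, 44.7 and 59.8 in knockdown libraries. The groups overlapped through control library 3, and the difference of 18.7 percentile points had an exact permutation p of 0.2.

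The other DNMT3B regions had peaks in part of the libraries. Region 2 at chr20:32780318-32780465 had peaks in control library 3 and in all 3 knockdown libraries, between the 41.0th and 46.2nd percentile. Region 5 at chr20:32786502-32786627 had peaks in knockdown libraries 1 and 3 only, both weak, at 11.7 and 5.80. Of the 6 regions seen in a single library, 3 came from control libraries, 1 in each, and 3 from knockdown libraries 1 and 3.

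TET3 had the most peaks of the TET dioxygenases. It spans 151.9 kb at chr2:73983631-74135498 on the plus strand. Its peaks numbered 5, 6 and 8 in control against 9, 4 and 6 in knockdown libraries, so that both means were 6.33 and the difference was 0 (exact permutation p = 1). The 2 longest regions of all 7 genes lay in TET3. Region 2 at chr2:74046278-74048411 covered 2134 bases and was at the 91.7th percentile in control library 1 and at the ceiling in the other 5 libraries. Its length per library ran only from 2017 to 2134 bases.

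TET3 region 9 at chr2:74100393-74104345 began at the same base in every library but ended at different places. The peak was 3953, 1758 and 2926 bases long in control and 2056, 3703 and 3703 bases long in knockdown libraries. Its percentiles were 79.6, 81.4 and the ceiling in control against the ceiling, 74.6 and 69.7 in knockdown libraries, with overlap (exact permutation p = 0.6). Region 7 at chr2:74093529-74093666 was at 40.1, 60.0 and 67.9 in control against 38.2, 43.7 and 53.4 in knockdown libraries (p = 0.3 by the same exact test). There the peak was 138 bases long in 5 libraries and 19 bases long in knockdown library 1. Region 4 at chr2:74087830-74088038 had peaks in all 3 control libraries, at 11.2, 14.9 and 24.4, and among the knockdown libraries only in library 1, at 31.4.

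TET1 and TET2 had the fewest peaks, and no region of either was found in all 6 libraries. TET1 spans 134.2 kb at chr10:68560337-68694487 on the plus strand. It had 1, 2 and 2 peaks in control and 1, 0 and 3 in knockdown libraries, a difference of -0.333 (exact permutation p = 1). TET1 region 1 at chr10:68560656-68560742, which began 319 bases after the annotated start, was present in all 3 control libraries and in knockdown libraries 1 and 3 (Fisher's exact test, two-sided, p = 1). Its percentiles were 40.0, 56.1 and 57.4 in control against 19.0 and 18.6 in the 2 knockdown libraries with a peak. All 3 control values were above both knockdown values, and since knockdown library 2 had no rank no test was made.

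TET2 spans 133.9 kb at chr4:105145875-105279803 on the plus strand. There was 1 peak in each control library, and 3, 2 and 1 in knockdown libraries, a difference of 1.0 (exact permutation p = 0.4). Control library 2 and the other control libraries had their peak in different places. TET2 region 1 at chr4:105146336-105146979, near the 5′ end, had peaks in 5 libraries, with percentiles 51.1 and 28.7 in control libraries 1 and 3 and 56.4, 3.49 and 33.7 in knockdown libraries. Control library 2 had its peak in region 3 near the 3′ end instead, at the 49.2nd percentile. The mean of 1.5 peaks per library, equal in TET1 and TET2, lay at the 61.9th percentile of genes, and 0.112 peaks per 10 kb of span at the 22.5th.

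**Figure D3:**
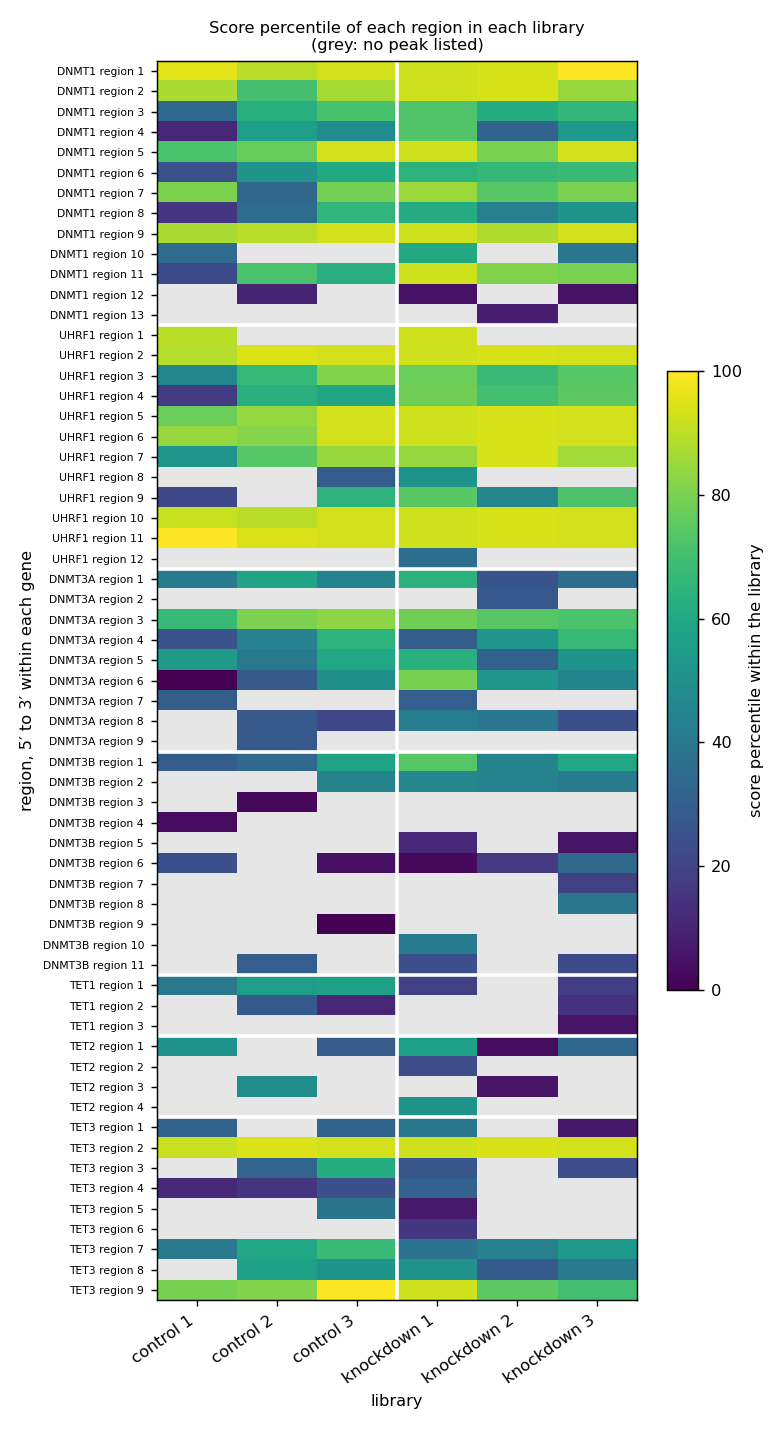
Rows are the 61 regions of the 7 genes from 5′ to 3′ and columns the 6 libraries. Colour gives the score percentile of the peak within its library and grey marks a region with no peak listed. UHRF1 and DNMT1 hold most of the high ranks (yellow), and most cells of DNMT3B and TET2 are grey.

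Set side by side, the order of the genes by peaks per 10 kb of span was DNMT1 (1.70), UHRF1 (1.64), DNMT3B (0.923), DNMT3A (0.567), TET3 (0.417) and then TET1 and TET2 (0.112 each). Exon lengths were not used here, so introns weigh on this order. By plain numbers, DNMT1 and UHRF1 overlapped in range (10 to 11 and 8 to 12 over 6 libraries), DNMT3A and TET3 overlapped (6 to 7 and 4 to 9), TET3 and DNMT3B overlapped (4 to 9 and 3 to 7), and TET1 and TET2 overlapped (0 to 3 and 1 to 3). UHRF1 was above DNMT3A in every library. The protein-coding genes with peak numbers most like those of DNMT1, by the summed absolute difference over the 6 libraries, were RBM33 (a difference of 2), FOXP4 (3) and TNIP1 (3). RBM33 had 9, 11 and 10 peaks in control and 10, 10 and 11 in knockdown libraries.

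Each of the 7 genes had a peak whose 5′ edge lay within 500 bases of an annotated start. So did 66.8% of all genes with a peak, and genes with many peaks have more chances of it. In DNMT3B, DNMT3A and UHRF1 region 2 the edge fell on the start itself in at least 4 libraries. Within TET3, region 1 at chr2:74002713-74002801 began 21 bases after an annotated start that is not the first of the gene, in 2 libraries of each group. TET2 region 1 reached into the 250 bases before a second annotated start of the gene in 5 libraries. These bases held 14 CCG in the direction of transcription. Over all promoter windows 77.3% had at least 1 CCG in this length and the median was 3. Other windows of the 7 genes differed. A TET3 start with 19 CCG in the 250 bases before it, the most of these genes, had no peak in its window (chr2:73984660-73984959) in any library. The window of a DNMT3A start with 2 CCG before it (chr2:25342541-25342840) had a peak in all 6 libraries. These peaks overlapped only the part of the window from the start onward, and none reached the bases in which CCG were counted. A link between CCG and peaks was not tested.

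**Figure D4:**
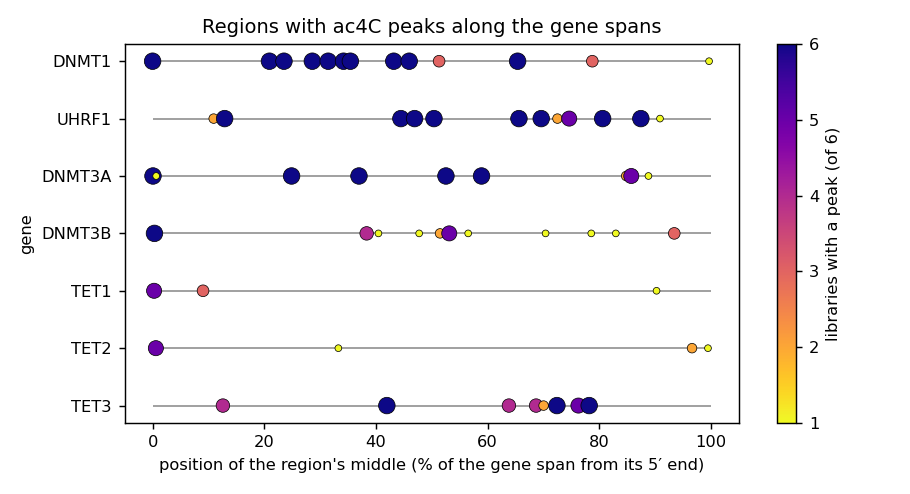
Each line is a gene span scaled from its 5′ end (0%) to its 3′ end (100%), and each point is a region at its middle. Size and colour give the number of libraries with a peak, of 6. DNMT1, DNMT3A, DNMT3B, TET1 and TET2 have a region at the 5′ end of the span, and the first regions of UHRF1 and TET3 lie at 10.9% and 12.6%.

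Taking all 61 regions of the 7 genes, 27 (44.3%) had a peak in all 6 libraries, against 22.0% of the 41755 regions of the whole lists. Most of the 27 lay in DNMT1 (10 of its 13 regions) and UHRF1 (8 of 12). DNMT3A had 5 of 9, TET3 3 of 9 and DNMT3B 1 of 11, and TET1 and TET2 had none. Of the 47 regions with peaks in 2 or more libraries, 35 (74.5%) had the same start and end in each, against 60.6% of all such regions. By gene this ran from 0 of 2 in TET2 to 11 of 12 in DNMT1. No region of the 61 was present throughout one group and absent throughout the other, while 0.819% of all regions had them in knockdown libraries alone and 0.34% in control libraries alone. More knockdown than control libraries had a peak in 20 regions, more control libraries in 7, and the numbers were equal in 34. As shares these were 32.8%, 11.5% and 55.7%, beside 37.0%, 28.3% and 34.7% of all regions. DNMT3B had the most uneven regions, 7 leaning to the knockdown and 3 to the control.

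The 3 regions with separate ranks, DNMT1 regions 6 and 11 and UHRF1 region 4, were 3 of the 27 regions present in all libraries, and all 3 were higher in knockdown libraries. Over all 9195 such regions, 6.98% were separate with the knockdown higher and 3.23% with the control higher. A ranking among the 9195 shared regions alone, chosen after seeing the data, separated DNMT1 region 11 and UHRF1 region 4 but not DNMT1 region 6, beside 6.05% and 5.35% of all shared regions. For the top-ranked peak of a gene, 4.75% of the 4906 genes with peaks in all libraries were separate with the knockdown higher and 3.14% with the control higher. None of the 6 members with a peak in all libraries was. DNMT3B had the smallest p of these genes, though its groups overlapped. Its region 1, the top peak in every library, had 40.6 in control against 59.3 in knockdown libraries as mean percentiles (exact permutation p = 0.2). By the midpoint rule, DNMT1 was at 87.1, 89.6 and the ceiling in control against the ceiling in every knockdown library. There the groups met only in a tie at the ceiling (exact permutation p = 0.4).

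Control library 1 was low in many of these regions. The median percentile of all peaks in the 7 genes was 40.5, 57.7 and 63.1 in control against 63.5, 62.1 and 53.5 in knockdown libraries. For all regions with peaks in all 6 libraries, whatever the gene, it was 67.9, 73.0 and 71.5 in control against 78.0, 69.2 and 70.4 in knockdown libraries. There too control library 1 was the lowest and knockdown library 1 the highest. Control library 1 also had the smallest share of peaks at the ceiling, 7.85%. Ranks are set within each library, so leaving a library out cannot close a gap between the groups. Its part in the 3 separate regions therefore cannot be measured in this way. With control library 1 left out, 29 regions were found in every remaining library. Beside the 3 regions already separate, 3 others then separated with the control higher. Of all regions, 10.3% (knockdown higher) and 7.4% (control higher) were separate under that setting. Without control library 3, ranks were separate in 12 of 27 regions, all with the knockdown higher, beside 16.4% of all regions with the knockdown higher and 7.16% with the control higher under the same setting. Without knockdown library 1, 4 regions were separate with the knockdown higher and 2 with the control higher, beside 9.25% and 12.1% of all regions. Leaving out knockdown library 2 gave 4 and 1, beside 11.4% and 4.83%, and leaving out knockdown library 3 gave 5 and 0, beside 11.1% and 4.82%.

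**Figure D5:**
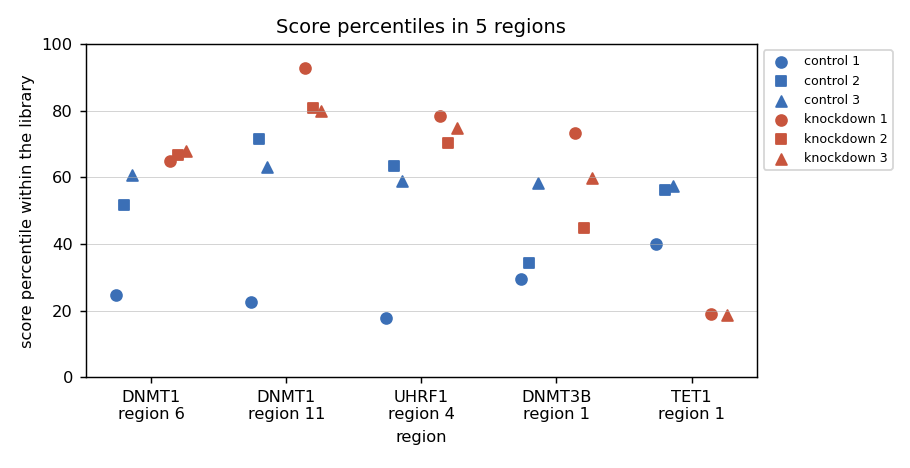
The y axis gives the score percentile within each library for 5 regions on the x axis, with 1 point per library (blue control, red NAT10 knockdown). DNMT1 regions 6 and 11 and UHRF1 region 4 do not overlap between the groups, DNMT3B region 1 does, and TET1 region 1 has no point for knockdown library 2.

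Beyond the 7 genes, 43 further genes of the DNA methylation pathway were counted: chromatin partners of the methyltransferases, readers of methylated DNA, base excision enzymes, and enzymes that supply S-adenosylmethionine or handle 2-oxoglutarate and 2-hydroxyglutarate. The strand was known here for 35 of them, and 24 of these had a peak, 15 in all 6 libraries. None of them was present throughout one group and absent from the other, and none had peak numbers that separated the groups. The median difference, knockdown minus control, was 0.333 peaks in this list and 0.333 in the 7 genes, beside 0 over all genes. The largest differences were small in number. D2HGDH, which breaks down D-2-hydroxyglutarate, had 1, 0 and 3 peaks in control and 4, 3 and 2 in knockdown libraries (exact permutation p = 0.3). IDH2, the mitochondrial isocitrate dehydrogenase that makes 2-oxoglutarate, had 2, 3 and 4 in control against 4 in each knockdown library (p = 0.4 by the same exact test). MTR, methionine synthase, had 2, 1 and 2 in control against 3, 2 and 3 in knockdown libraries. MBD1, a reader of methylated DNA, had 1, 2 and 1 in control against 3, 2 and 1 in knockdown libraries. AHCYL1, a relative of S-adenosylhomocysteine hydrolase, had 2, 2 and 3 in control against 3 in each knockdown library. In all 5 genes the groups overlapped. AHCYL1 and MBD1 were tied in size, at 0.667, with QSER1, ZBTB33, ZBTB38 and ZNF445, which had a difference of -0.667 each, so the order among these 6 genes is alphabetical.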

How the data were processed

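The data were acRIP-seq peak lists of 3 control and 3 NAT10-knockdown SW620 libraries. The authors deposited 1 list per library, not pooled, limited to mRNA, with a strand and a score per peak. The peak names are those of MACS, the build is GRCh38 per the submitters' processing notes, and the aligner, settings and scale of the score are not given in the sources used here.

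Gene spans came from the RefSeq table of GRCh38.p14 (20056 protein-coding genes, strand known here for 15843). Regions were made by joining peaks of one strand that shared 1 base or more. Of the peaks in 1 gene, 99.4% lay on its strand. Peak numbers and ranks were compared by two-sided exact permutation tests, presence by two-sided Fisher's exact tests, with Benjamini-Hochberg adjustment over all genes or regions. The members and lists were chosen with earlier results of these data known. Named were the 7 members, their regions in all libraries or highest in rank, any pathway gene called and the first 5 by size of difference (ties by symbol), and 3 genes nearest to DNMT1. Other regions were named after their values were seen. The call by presence of a peak was tested on simulated lists of 13006 genes without noise. There 200 of 200 genes planted in a single group were recovered, which checks the code of this call only. Python 3.11.15, numpy 2.4.6, pandas 2.3.3 and scipy 1.17.1 were used.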

Additional observations from a re-analysis of the deposited data

How the results depend on the processing

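Deviations of same-numbered libraries correlated at 0.0295, 0.00234 and 0.0318, and whether replicate numbers mark a shared batch was not tested. With the replicate number as a block, an exact sign-flip test with a smallest p of 0.25 gave the same differences, for example 2.0 peaks in DNMT3B (p = 0.5), and changed no call. Control and knockdown libraries 1 correlated best with each other across the groups, and so did control and knockdown libraries 3. Neither library 2 correlated best with its own number. Alternatives tried were only the upper 50% of each list by score, 17877 highest-scored peaks per library, either strand, any overlap with the span, 50% of a region covered, a difference of at least 2 libraries, the median peak of a gene, and each library left out. With the 50% of highest scores, 0 regions had separate ranks, of 13 left in all libraries, beside 6.12% (knockdown higher) and 2.2% (control higher) of all regions. With equal numbers of peaks it was 2 of 25, both with the knockdown higher, beside 6.68% and 4.37%. With a difference of at least 2 libraries, 3 regions were called (DNMT3B regions 2 and 5 toward the knockdown, TET3 region 4 toward the control), 3.28% and 1.64% of the 61 beside 5.92% and 4.07% of all regions, and 1 pathway gene (ZBTB33, toward the control), beside 4.13% of all genes in that direction. With the median peak, the rank difference turned from -1.80 to 6.87 in DNMT3A and from 2.76 to -3.55 in TET3.

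Leaving out 1 library at a time, genes of the 7 with separate peak numbers ranged from 0 to 1 (DNMT3B without knockdown library 2, TET2 without knockdown library 3). Regions called ranged from 0 to 1 (DNMT3B region 2 without control library 3, TET3 region 4 without knockdown library 1, DNMT3B region 5 without knockdown library 2). Pathway genes called ranged from 0 to 1 (ZBTB33 without knockdown library 1). No share of all genes or regions is given here for these counts, so they are no result about the genes named. Groups separate more easily with a library fewer. For ranks, 6.98% of all regions were separate with the knockdown higher in all 6 libraries, and 16.4% without control library 3. Regions with separate ranks ranged from 3 to 12: 12 without control library 3, 6 without control library 1 or knockdown library 1, and 5 without knockdown library 2 or 3. The lowest count, 3 without control library 2, stood beside 13.3% (knockdown higher) and 4.86% (control higher) of all regions. Since a gap cannot close when a library is left out, a count of at least 3 was fixed beforehand. Signs turned within these ranges for UHRF1 peak numbers (from -0.333 without knockdown library 1 to 1.17 without knockdown library 2), TET1 peak numbers (from -1.17 without knockdown library 3 to 0.333 without knockdown library 2), TET3 peak numbers (around 0, from -1.33 without knockdown library 1 to 1.17 without knockdown library 2), the DNMT3A top rank (from -6.45 without control library 1 to 1.13 without control library 3) and the TET2 top rank (from -23.5 without knockdown library 1 to 2.04 without knockdown library 2). With no read counts, the depth behind a missing peak is unknown, and a peak not listed does not show that the RNA lacks ac4C.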
